A study of Homo sapiens with 6 samples.

Results

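The aminoacyl-tRNA synthetases, the enzymes that load amino acids onto tRNAs, were examined in MKN45 cells. MKN45 is an established human gastric cancer cell line. The members were taken by name from the gene table, and all 36 listed names were among its 11658 protein-coding genes. Of these, 20 are cytosolic enzymes, named without a final 2, and 16 are mitochondrial enzymes, whose names end in 2. The transcript table listed 94 of its 30432 transcripts under these genes. RNA was sequenced from 3 libraries of cells transfected with an shRNA against the transcript tcons_00001221 (target shRNA) and from 3 libraries of cells transfected with a control shRNA. An shRNA is a short hairpin RNA that the cell processes into a small RNA that lowers a matching transcript. All 6 libraries came from the same cell line in the same medium, and the comparison asks what differed when the transcript was targeted. The target transcript itself was not analysed here, so the groups are called by their labels.

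Each synthetase recognises an amino acid and the tRNAs that belong to it, and joins them in a reaction that uses ATP. The cytosol and the mitochondrion mostly use separate enzymes, all encoded in the nucleus, while the genes for the glycine and lysine enzymes serve both compartments. The enzymes fall into a pair of structural classes, I and II, by the fold of the catalytic domain. Several cytosolic enzymes are held with scaffold proteins in a multisynthetase complex. When charged tRNA runs short, the kinase GCN2 (gene EIF2AK4) senses uncharged tRNA and phosphorylates the initiation factor eIF2. This favours translation of the transcription factor ATF4, whose known targets include many cytosolic synthetase genes.

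Levels were given as FPKM, fragments scaled to transcript length and to the mapped fragments of the library, which allows levels of different genes to be set side by side. Read numbers behind these values are unknown, and no counting error is given. The sum of gene FPKM was 186226 to 192101 over the 6 libraries. Whether the replicates were grown separately is not stated, and the p-values therefore measure only the spread among these libraries, which may be technical. Of 7 epithelial markers 5 were in the gene table, and KRT19 and CDH1 were not in it, so they were not analysed here. The epithelial keratins KRT8 and KRT18 and the receptor MET were at 34.9, 57.0 and 79.5 FPKM in target libraries. In control libraries they were at 35.1, 60.9 and 82.8 FPKM. The adhesion protein EPCAM was at 6.84 and 7.26 FPKM in target and control libraries. The tight junction gene CLDN4 was uneven, at 10.6, 0.0586 and 0.175 FPKM in target libraries against 10.0 FPKM or more in each control library. Of 8 markers of blood, endothelial and fibroblast cells, 4 were in the gene table. Of these CD68, a macrophage marker, was at 10.5, 12.4 and 9.59 FPKM in target libraries against 14.3, 15.2 and 12.5 FPKM in control libraries, wholly lower without passing the test. The fibroblast marker LUM was at 11.7 and 12.6 FPKM in target and control libraries, COL1A1 at 3.49 and 3.19, and DCN at 1.07 and 1.46. LUM thus lay above EPCAM in both groups, and the markers were mixed. The part of these markers in the results below was not tested.

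With the target shRNA, 6 of the 20 cytosolic synthetase genes rose and 0 fell, while 0 of the 16 mitochondrial genes passed the test in either direction. The 6 were AARS, MARS, GARS, CARS, IARS and EPRS, with means 1.24-fold to 1.61-fold those of control libraries. GARS and KARS were counted as cytosolic by name, though both genes also serve the mitochondrion. The test was limma on log2(FPKM + 1) over 10675 genes, with Benjamini-Hochberg adjustment and a threshold of 0.05 for the adjusted p. Over all genes tested, 0.749% passed in either direction, 0.534% as higher and 0.215% as lower. The median log2 change, target minus control, was 0.22 for the cytosolic genes, 0.07 for the mitochondrial genes and 0.03 for all genes tested. In 13 of the 20 cytosolic genes every target library lay above every control library, where 16.6% of all genes did so, and 0 lay wholly below, where 7.18% did. Among the 16 mitochondrial genes 2 lay wholly above and 1 wholly below. The count of 6 depended on having all libraries. It was 1 without target replicate 1, 1 without target replicate 2 and 1 without target replicate 3. It was 2 without control replicate 1, 2 without control replicate 2 and 2 without control replicate 3.

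**Figure D1:**
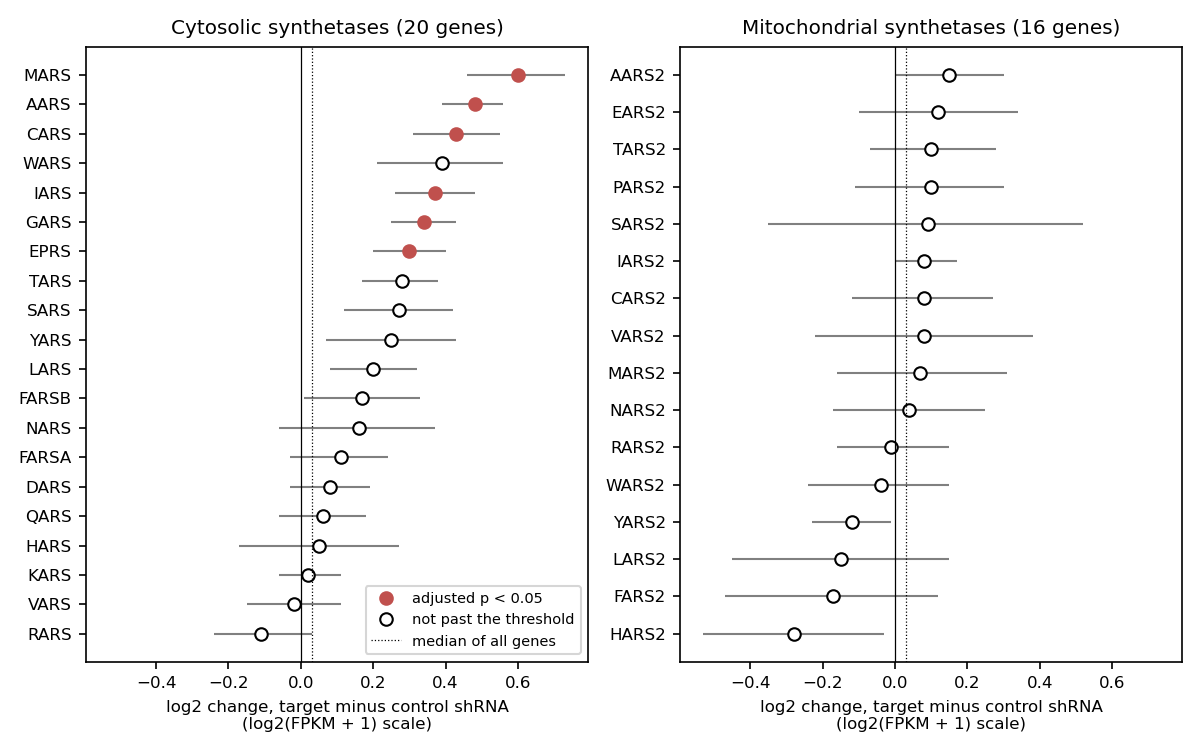
Log2 change (target minus control shRNA, on the log2(FPKM + 1) scale) of the 20 cytosolic and 16 mitochondrial synthetase genes, with 95% intervals as lines. Filled points mark the 6 cytosolic genes past the threshold, the dotted line marks the median of all genes tested (0.03), and the mitochondrial points lie between -0.28 and 0.15.

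Summed over the 20 cytosolic genes, the level was 678, 674 and 700 FPKM in target libraries against 567, 578 and 578 FPKM in control libraries, a ratio of means of 1.19. Summed over the 16 mitochondrial genes it was 182, 183 and 184 FPKM in target libraries against 178, 177 and 181 FPKM in control libraries. These sums are descriptions, and a few abundant genes weigh most in them. IARS2 alone made up much of the mitochondrial sum, and without it the sum was 86.3, 90.5 and 87.8 FPKM in target libraries against 89.5, 88.1 and 89.6 FPKM in control libraries, where the groups overlapped.

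AARS, the alanine-tRNA ligase, was at 75.0, 76.6 and 76.8 FPKM in target libraries and at 54.7, 53.4 and 55.1 FPKM in control libraries. The groups lay far apart against their spread, and AARS had the smallest p of all members, the log2 change being 0.48 (SE 0.03; limma, adjusted p = 0.0049). The gene lies on chromosome 16 at 70286198 to 70323446 on the minus strand of GRCh37. Its call was kept in 13 of 14 alternative settings, more than that of any other member.

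MARS, the methionine-tRNA ligase, which also charges the initiator tRNA and is held in the multisynthetase complex, showed the largest change of the 36 genes. It was at 8.59, 8.41 and 8.42 FPKM in target libraries and at 4.90, 5.50 and 5.40 FPKM in control libraries. No library came near the other group, and the log2 change reached 0.60 (SE 0.06; limma, adjusted p = 0.012). MARS lies on chromosome 12 at 57869228 to 57911352, plus strand, and shares 982 bases with DDIT3, which lies on the opposite strand and encodes the stress factor CHOP. DDIT3 was at 9.40, 9.09 and 10.3 FPKM in target libraries and at 5.70, 6.41 and 5.84 FPKM in control libraries, also a log2 change of 0.60 (limma, adjusted p = 0.021). Strandedness is not given in the sources used here, so reads of the shared stretch cannot be told apart. The listed MARS transcripts share 62 or 68 bases with DDIT3, and the part of this overlap in the MARS result was not tested.

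GARS, the glycine-tRNA ligase of both compartments, was at 74.1, 72.3 and 72.3 FPKM in target libraries and at 56.2, 59.4 and 57.0 FPKM in control libraries. Its log2 change was 0.34 with an SE of 0.04 (limma, adjusted p = 0.021), and the groups did not overlap. GARS lies on chromosome 7 at 30634297 to 30673649, plus strand. Both forms of the enzyme come from this gene, and its FPKM does not tell them apart.

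CARS, the cysteine-tRNA ligase, was at 15.3, 15.7 and 16.6 FPKM in target libraries and at 11.6, 11.9 and 11.2 FPKM in control libraries. The groups did not overlap, and the log2 change was 0.43 (SE 0.05; limma, adjusted p = 0.024). The CARS locus spans 3022152 to 3078843 of chromosome 11 on the minus strand.

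IARS, the isoleucine-tRNA ligase, another enzyme of the multisynthetase complex, was at 30.5, 29.7 and 30.1 FPKM in target libraries and at 22.2, 24.2 and 22.7 FPKM in control libraries. It rose by 0.37 with an SE of 0.04 on the log2 scale (limma, adjusted p = 0.025). The target libraries were the tighter group, with an SD of 0.377 FPKM against 0.999 FPKM in control libraries. IARS lies on chromosome 9 at 94972489 to 95056038, minus strand.

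EPRS, a single protein that carries both the glutamate and the proline enzyme and sits in the same complex, was at 81.7, 82.3 and 88.5 FPKM in target libraries and at 68.0, 68.6 and 67.8 FPKM in control libraries. Target replicate 3 stood above the other target libraries. The log2 change was 0.30 with an SE of 0.04, and the adjusted p of 0.047 (limma) lay just under the threshold. The gene lies on chromosome 1 at 220141943 to 220220000, minus strand. The EPRS call was kept in 2 of 14 alternative settings, with adjusted p of 0.041 to 0.21. The calls of CARS, GARS and IARS were kept in 6 of 14 each and that of MARS in 9 of 14. CARS, GARS and IARS lost their calls without any 1 of the libraries, and MARS without any 1 of the target libraries, while their log2 changes in those settings stayed between 0.32 and 0.60.

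**Figure D2:**
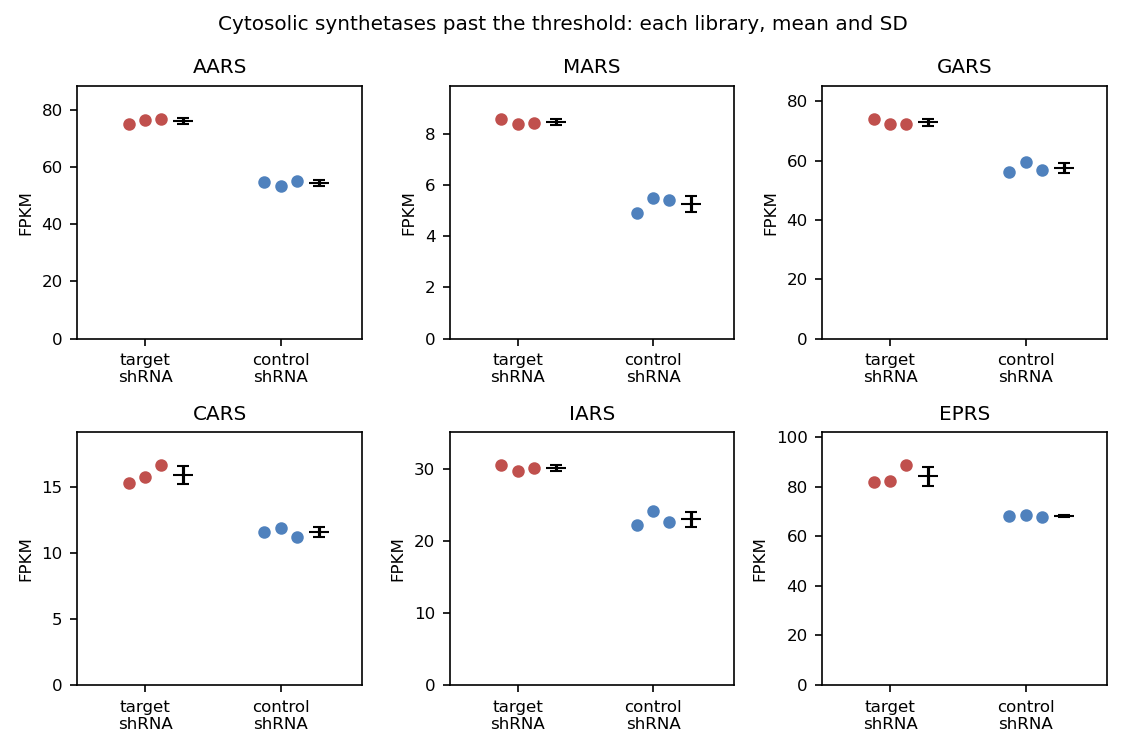
FPKM of the 6 cytosolic synthetase genes past the threshold in each of the 3 target and 3 control libraries (points), with the mean and SD beside them; each axis starts at 0. In all 6 genes the target libraries lie above the control libraries, from 8.41 to 8.59 against 4.90 to 5.50 FPKM for MARS and from 75.0 to 76.8 against 53.4 to 55.1 FPKM for AARS.

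The promoters of these genes are shown because the ATF4 family binds a short element that is present near the start of several synthetase genes. The searched letters were TGATGNAA, the core of the C/EBP-ATF response element, on both strands, in RefSeq windows of 250 bases before to 50 bases after each annotated start (GRCh38.p14). Windows were found for 30 of the 36 members, and the others were AARS2, DARS, LARS, VARS, VARS2 and YARS. Of the 6 genes that rose, 5 had a match, against 2 of the 10 other cytosolic genes with a window and 1 of 14 mitochondrial genes. Among all RefSeq windows, 3.62% of 35116 held a match, as did 4.46% of 27305 genes. LARS, VARS and YARS, known ATF4 targets that did not pass, had no window and are missing from this comparison. The search was chosen with earlier results of these data known, and a part of these matches in the changes was not tested. The sequences run 5′ to 3′ on the strand of the gene from 250 bases before the start to 25 bases after it, with capitals marking the match. In AARS, MARS, GARS, CARS and IARS the match is read on the opposite strand, so it appears as its reverse complement.
AARS, chr16:70289482-70289756, minus strand: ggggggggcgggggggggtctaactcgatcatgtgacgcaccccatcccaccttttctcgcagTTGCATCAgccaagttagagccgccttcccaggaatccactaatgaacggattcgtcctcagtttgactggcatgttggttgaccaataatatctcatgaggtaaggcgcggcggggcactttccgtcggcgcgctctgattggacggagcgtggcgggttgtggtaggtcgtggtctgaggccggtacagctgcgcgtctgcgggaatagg
MARS, chr12:57487818-57488092, plus strand: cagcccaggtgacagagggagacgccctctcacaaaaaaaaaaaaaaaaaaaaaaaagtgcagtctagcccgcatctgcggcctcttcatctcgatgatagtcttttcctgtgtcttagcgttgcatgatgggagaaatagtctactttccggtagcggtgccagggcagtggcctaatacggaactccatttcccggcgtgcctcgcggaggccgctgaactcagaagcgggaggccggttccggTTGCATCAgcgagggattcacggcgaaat
GARS, chr7:30594628-30594902, plus strand: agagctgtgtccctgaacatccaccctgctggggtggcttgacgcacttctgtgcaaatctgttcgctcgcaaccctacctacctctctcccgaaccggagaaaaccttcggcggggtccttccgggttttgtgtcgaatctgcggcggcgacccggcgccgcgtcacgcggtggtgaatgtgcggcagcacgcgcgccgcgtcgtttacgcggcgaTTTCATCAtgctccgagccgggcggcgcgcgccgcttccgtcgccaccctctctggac
CARS, chr11:3057399-3057673, minus strand: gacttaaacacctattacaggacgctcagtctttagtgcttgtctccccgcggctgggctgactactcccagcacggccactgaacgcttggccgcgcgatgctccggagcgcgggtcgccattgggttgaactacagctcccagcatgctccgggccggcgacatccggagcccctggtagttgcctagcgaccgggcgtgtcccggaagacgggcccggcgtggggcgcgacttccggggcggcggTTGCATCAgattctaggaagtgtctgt
IARS, chr9:92293673-92293947, minus strand: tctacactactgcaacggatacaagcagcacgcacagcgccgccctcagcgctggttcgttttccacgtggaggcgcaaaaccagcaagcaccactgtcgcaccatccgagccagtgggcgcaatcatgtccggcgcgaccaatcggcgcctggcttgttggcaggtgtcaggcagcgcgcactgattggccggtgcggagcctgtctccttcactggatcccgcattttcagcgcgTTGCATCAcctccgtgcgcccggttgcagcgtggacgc
EPRS, chr1:220046481-220046755, minus strand: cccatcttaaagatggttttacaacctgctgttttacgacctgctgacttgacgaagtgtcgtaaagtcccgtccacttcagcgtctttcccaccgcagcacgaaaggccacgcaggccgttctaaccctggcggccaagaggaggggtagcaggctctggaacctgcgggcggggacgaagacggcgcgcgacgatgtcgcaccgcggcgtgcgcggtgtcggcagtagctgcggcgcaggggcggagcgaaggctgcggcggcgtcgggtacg

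The letters were TGATGCAA in AARS, MARS, CARS and IARS and TGATGAAA in GARS. The match began at position -187 from the annotated start in AARS, at -33 in GARS and at -13 in IARS. In MARS and CARS it spanned the start, from -4 to 4 and from -2 to 6. CARS, GARS and TARS have more than 1 window in the table, and the match was in 1 of them in each gene. EPRS, which rose, held no match in its window, which says only that these letters are not in it. Among genes that did not pass, TARS and NARS had TGATGCAA just after the start and YARS2 had TGATGGAA at -197. These stretches are given with 8 bases on either side.
TARS, chr5:33440959-33440982, plus strand: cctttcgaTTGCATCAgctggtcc
NARS, chr18:57621807-57621830, minus strand: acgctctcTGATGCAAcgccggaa
YARS2, chr12:32756079-32756102, minus strand: cacactgcTGATGGAAaaattaag

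**Figure D3:**
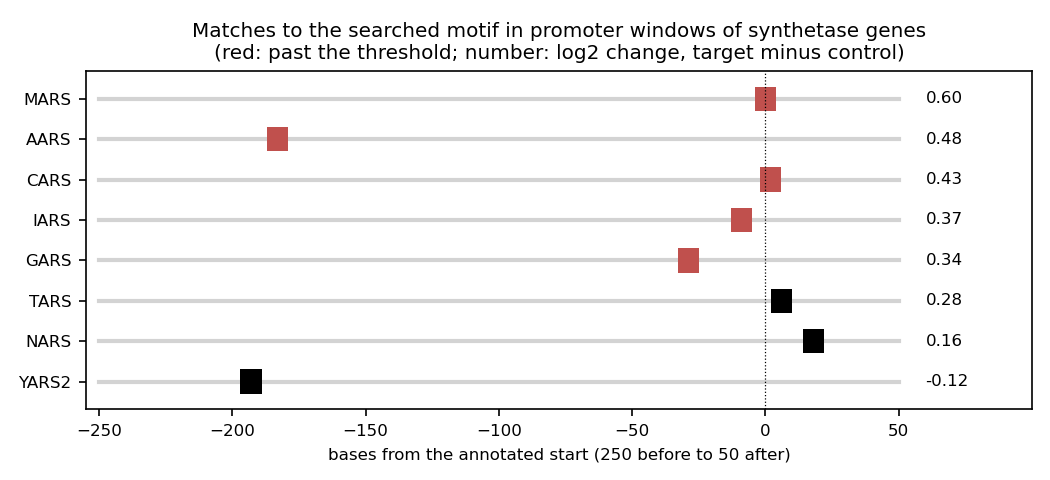
Position of each match to the searched motif (boxes) in the promoter windows of the 8 synthetase genes that had one, in bases from the annotated start, with the log2 change of each gene at the right. Of the 5 genes past the threshold (red), 4 have the match between -33 and 6 and AARS has it at -187.

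Of the 20 cytosolic genes, 13 are known from other work as targets of ATF4, and all 6 that rose are among them, while 0 of the 7 others passed. The 13 had a median log2 change of 0.30 and the 7 had one of 0.06. In 11 of the 13 the target libraries lay wholly above the control libraries, against 2 of the 7, where 16.6% of all genes did so. Summed, the 13 were at 526, 525 and 542 FPKM in target libraries against 420, 427 and 426 FPKM in control libraries. The 7 were at 152, 148 and 159 FPKM in target libraries against 147, 151 and 152 FPKM in control libraries, and there the groups overlapped. The lists were written with earlier results of these data known, so this match is not independent support. The difference between these lists was not tested, and neither was a part of ATF4 in it.

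Among the known targets that did not pass, TARS, the threonine-tRNA ligase and by gene value the most abundant member, came closest. It was at 106, 108 and 113 FPKM in target libraries and at 92.2, 90.1 and 86.9 FPKM in control libraries, a log2 change of 0.28 (limma, adjusted p = 0.059). The groups did not overlap, but the sum of its listed transcripts had the opposite sign, as given below. WARS, the tryptophan-tRNA ligase, which is also known as an interferon-induced gene, was at 7.60, 6.83 and 7.95 FPKM in target libraries and at 5.09, 5.79 and 5.53 FPKM in control libraries. Its change of 0.39 (limma, adjusted p = 0.094) was larger than that of IARS, GARS and EPRS. The SE on the log2 scale was also larger, 0.07 against 0.04 for each of them.

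SARS, the serine-tRNA ligase, was at 64.0, 58.9 and 60.2 FPKM in target libraries and at 48.9, 48.1 and 54.7 FPKM in control libraries, without overlap (log2 change 0.27; limma, adjusted p = 0.14). LARS, the leucine-tRNA ligase, which also acts as a leucine sensor for the mTORC1 pathway, averaged 19.4 ± 0.460 FPKM in target and 16.8 ± 0.811 FPKM in control libraries (SD, n = 3 each), and YARS, the tyrosine enzyme, 14.6 ± 0.459 and 12.1 ± 1.24 FPKM. Their adjusted p were 0.16 and 0.21 by limma, and their groups did not overlap. NARS, the asparagine enzyme, overlapped: target replicate 1, at 17.5 FPKM, lay within the control range, while the other target libraries were at 21.3 and 21.5 FPKM, against 17.7, 19.0 and 16.9 FPKM in control libraries. VARS, the valine enzyme, was at 11.5, 11.9 and 11.6 FPKM in target libraries and at 11.3, 11.6 and 12.6 FPKM in control libraries. Its 95% interval for the log2 change was -0.15 to 0.11, which leaves out the changes fitted for the 6 genes that passed.

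Of the other 7 cytosolic genes, KARS, the lysine enzyme of both compartments, had the smallest SD of the 7 in both groups. It was at 26.1, 26.5 and 26.4 FPKM in target libraries and at 25.7, 25.9 and 26.1 FPKM in control libraries, a change of 0.02 with a 95% interval of -0.06 to 0.11, the groups just failing to overlap. QARS, the glutamine enzyme, was at 35.6, 33.8 and 37.5 FPKM in target libraries against 33.8, 33.4 and 34.8 FPKM in control libraries (0.06, interval -0.06 to 0.18). RARS, the arginine enzyme, had the lowest change of the cytosolic genes. It was at 34.6, 33.2 and 37.1 FPKM in target libraries and at 36.0, 38.5 and 38.7 FPKM in control libraries, with overlap, a change of -0.11 (limma, adjusted p = 0.41). DARS, the aspartate enzyme, averaged 19.4 and 18.3 FPKM in target and control libraries, and HARS, the histidine enzyme, 5.97 and 5.75 FPKM.

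FARSA and FARSB encode the subunits of the same phenylalanine enzyme, which holds equal numbers of both. Their levels were unequal, at 23.7 ± 1.66 FPKM for FARSA and 7.14 ± 0.405 FPKM for FARSB in target libraries, and at 22.0 ± 0.279 and 6.23 ± 0.440 FPKM in control libraries (SD, n = 3 each). FARSB was at 6.70, 7.49 and 7.24 FPKM in target libraries against 6.66, 5.78 and 6.25 FPKM in control libraries, where the nearest libraries differed by little. Neither subunit passed (limma, adjusted p 0.42 and 0.29).

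Genes that rose were found in both structural classes, and inside and outside the multisynthetase complex. Of 9 class I cytosolic genes 3 rose, as did 2 of 10 in class II and 0.534% of all genes tested. The median changes of classes I and II were 0.25 and 0.16. EPRS, which joins an enzyme of each class, was counted in neither. Of 8 genes whose enzymes are held in the complex 3 rose (EPRS, IARS and MARS), and of the 12 others 3 rose (AARS, CARS and GARS). Within the complex the changes ranged from -0.11 for RARS to 0.60 for MARS. The scaffold genes of the complex, AIMP1, AIMP2 and EEF1E1, did not pass. AIMP1 was at 9.41, 11.1 and 9.03 FPKM in target libraries against 9.81, 10.6 and 8.31 FPKM in control libraries, and AIMP2 at 8.45, 8.40 and 7.98 FPKM against 8.15, 7.95 and 7.70 FPKM. EEF1E1 was at 6.16, 4.72 and 5.90 FPKM in target libraries and at 4.92, 4.16 and 3.56 FPKM in control libraries, a change of 0.34 with overlap (limma, adjusted p = 0.27).

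The mitochondrial enzymes were mostly of low abundance, with a median level of 5.35 FPKM in target and 5.04 FPKM in control libraries, against 21.9 and 20.1 FPKM for the cytosolic genes. IARS2, the mitochondrial isoleucine enzyme, was the exception in level, at 95.7, 93.0 and 96.4 FPKM in target libraries and at 88.4, 89.2 and 91.1 FPKM in control libraries. Its groups did not overlap, but the change was small, 0.08 with an SE of 0.03 (limma, adjusted p = 0.30). MARS2, the methionine enzyme, was the lowest, at 1.10, 1.31 and 1.66 FPKM in target libraries and at 1.18, 1.37 and 1.16 FPKM in control libraries.

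AARS2, the mitochondrial alanine enzyme, was at 8.61, 9.66 and 9.17 FPKM in target libraries and at 8.18, 7.67 and 8.60 FPKM in control libraries, with the nearest values side by side (log2 change 0.15; limma, adjusted p = 0.32). YARS2, the mitochondrial tyrosine enzyme, was the sole member that lay wholly lower, at 8.44, 8.59 and 8.09 FPKM in target libraries and at 9.25, 9.29 and 9.02 FPKM in control libraries (-0.12, adjusted p = 0.28). It shares 18161 bases with DNM1L on the opposite strand, and the part of this overlap was not tested. HARS2, the mitochondrial histidine enzyme, had the largest negative change, -0.28 (adjusted p = 0.28), at 8.90, 10.4 and 9.59 FPKM in target libraries and at 13.7, 10.3 and 11.9 FPKM in control libraries, where control replicate 2 lay within the target range. HARS2 and HARS lie on opposite strands and share 599 bases. HARS2 also shares 612 bases with ZMAT2 on the same strand, and the part of these overlaps was not tested.

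The remaining 12 mitochondrial genes, CARS2, EARS2, FARS2, LARS2, NARS2, PARS2, RARS2, SARS2, TARS2, VARS2, WARS2 and MARS2 (given above), had overlapping groups and did not pass, with log2 changes between -0.17 and 0.12. SARS2, the serine enzyme, was uneven within its group, at 5.79, 5.58 and 3.29 FPKM in target libraries against 4.10, 4.74 and 4.46 FPKM in control libraries. FARS2, the phenylalanine enzyme, was at 3.41, 3.74 and 4.97 FPKM in target libraries and at 4.34, 5.13 and 4.49 FPKM in control libraries, so that 1 target library lay above 2 control libraries. LARS2, the leucine enzyme, averaged 3.82 ± 0.360 FPKM in target and 4.37 ± 0.846 FPKM in control libraries (SD, n = 3 each), and WARS2, the tryptophan enzyme, 6.76 ± 0.490 and 7.01 ± 0.632 FPKM. Over the 16 genes the 95% intervals reached from -0.53 (HARS2) to 0.52 (SARS2), so changes of the size seen in the cytosolic genes were within the interval for some of them. At an unadjusted p under 0.05 there were 3 mitochondrial genes, HARS2 and YARS2 with lower and IARS2 with higher values in target libraries (limma), where 16.1% of all genes tested were under it, a share near that of these genes.

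Set side by side for each amino acid, the cytosolic enzyme had the higher log2 change in 14 of 16 pairs. Arginine and valine were the others, where the difference between the enzymes moved by -0.10 each. EPRS was counted for both glutamate and proline, so the pairs are not all separate. The measure was the per-library difference between log2(FPKM + 1) of the cytosolic and of the mitochondrial enzyme, and an exact permutation test with 3 against 3 libraries cannot go below p = 0.10 (two-sided). This smallest p was reached for 6 amino acids, alanine, cysteine, isoleucine, methionine, tryptophan and tyrosine, and adjusted over the 16 pairs it was 0.27. In these pairs the groups did not overlap, which held for 23.7% of all genes taken singly. No such share was computed for pairs of other genes. For methionine the difference was 2.01 ± 0.18 in target libraries and 1.49 ± 0.07 in control libraries (SD, n = 3 each), a shift of 0.53. For alanine it was 2.93 ± 0.06 and 2.60 ± 0.05 in target and control libraries, and for cysteine 1.32 ± 0.17 and 0.96 ± 0.10. For serine and asparagine the libraries overlapped widely (exact p = 0.70 and 0.60, permutation test), and without target replicate 3 the shift was -0.02 for serine and -0.01 for asparagine.

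By the authors' gene values, the level of the cytosolic enzyme exceeded the mitochondrial one in 14 of 16 pairs in target libraries and in 13 of 16 in control libraries. Glutamate and proline stood at the top: EPRS had 33.6-fold the FPKM of EARS2 in target libraries and 31.0-fold in control libraries, and 18.6-fold and 16.3-fold that of PARS2. Isoleucine and histidine ran the other way, with the cytosolic enzyme at 0.317-fold and 0.621-fold the mitochondrial one in target libraries and at 0.257-fold and 0.493-fold in control libraries. For histidine this order rests on the gene values, since the summed listed transcripts averaged 15.4 FPKM for HARS and 15.1 FPKM for HARS2 in target libraries, and 15.3 and 17.4 FPKM in control libraries. By gene values WARS was at 1.10-fold WARS2 in target libraries and at 0.783-fold in control libraries. By summed transcripts WARS lay above WARS2 in both groups, at 19.4 against 9.08 FPKM in target libraries and at 14.2 against 9.32 FPKM in control libraries. For tryptophan the log2 difference of the gene values was 0.12 ± 0.03 in target and -0.31 ± 0.09 in control libraries (SD, n = 3 each).

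**Figure D4:**
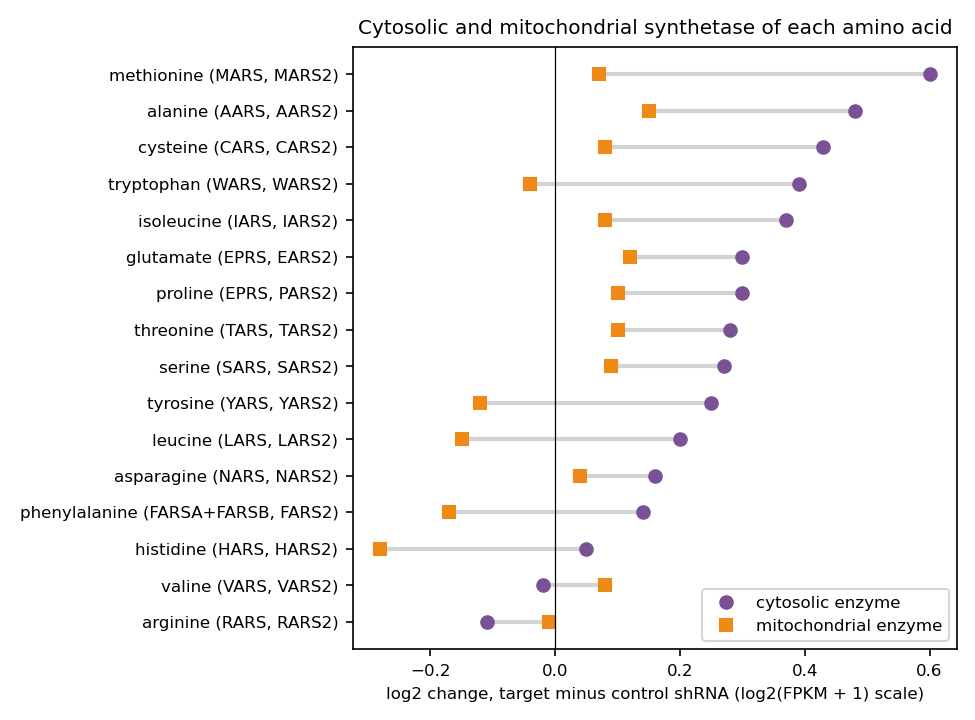
Log2 change (target minus control shRNA, log2(FPKM + 1) scale) of the cytosolic enzyme (circles) and the mitochondrial enzyme (squares) of each of 16 amino acids, joined by a line. The circle lies to the right of the square for 14 amino acids, and arginine and valine are the exceptions; FARSA and FARSB are averaged for phenylalanine.

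Genes that work beside the synthetases were followed in a list of 20, of which 19 were in the table and tested. Of these 1 rose, 0 fell and 18 did not pass, where 0.534% of all genes tested rose and 0.215% fell. The median log2 change of the 19 was 0.15. Of the 19, 7 lay wholly higher in target libraries and 0 wholly lower, where 16.6% and 7.18% of all genes did. The one that rose was XPOT, which exports tRNAs from the nucleus, at 40.7, 40.0 and 41.0 FPKM in target libraries and at 30.9, 32.0 and 29.4 FPKM in control libraries. Its log2 change of 0.39 (limma, adjusted p = 0.022) lay within the range of the 6 synthetases, and its call was lost without any 1 of the libraries (adjusted p 0.050 to 0.10). ATF4 was at 130, 127 and 128 FPKM in target libraries and at 109, 111 and 112 FPKM in control libraries, without overlap, and missed the threshold (0.21; limma, adjusted p = 0.061). The sum of its listed transcripts changed by -0.04. The sensor EIF2AK4 averaged 6.52 ± 0.306 FPKM in target and 5.93 ± 0.322 FPKM in control libraries (SD, n = 3 each).

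MTFMT, which formylates the initiator methionyl-tRNA of mitochondria, was at 3.66, 3.39 and 3.47 FPKM in target libraries and at 2.62, 2.94 and 2.86 FPKM in control libraries (0.24; limma, adjusted p = 0.16). Over all genes tested, the groups of 23.7% did not overlap, and 16.6% lay wholly higher in target libraries. MTFMT was the one of 4 genes of mitochondrial glutaminyl-tRNA synthesis and formylation whose groups did not overlap. None of these 4, of the 5 genes of uncharged tRNA sensing, of 3 selenocysteine genes or of 3 editing genes passed (limma). DTD1 and DTD2, which remove wrongly attached amino acids from tRNA, were both wholly higher in target libraries, DTD1 at 7.43 ± 0.406 against 6.30 ± 0.470 FPKM in control libraries and DTD2 at 2.18 ± 0.222 against 1.58 ± 0.258 FPKM (SD, n = 3 each). Neither passed (limma, adjusted p 0.24 and 0.22). EEFSEC, the elongation factor for selenocysteine, averaged 10.3 FPKM in target and 8.68 FPKM in control libraries (adjusted p = 0.30).

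At the level of transcripts, 68 of the 94 listed were tested and 1 passed, where 0.287% of 20890 transcripts did. It was AARS-001, which carries nearly all of the AARS transcript signal. It was at 96.4, 98.4 and 98.8 FPKM in target libraries and at 70.6, 67.7 and 70.8 FPKM in control libraries, a log2 change of 0.48 (limma, adjusted p = 0.025). The number of higher calls among these transcripts was 0 without target replicate 1, 2 or 3 and without control replicate 1 or 3, and 1 without control replicate 2. Of the 68, 13 lay wholly higher and 7 wholly lower in target libraries, where 15.2% of all transcripts did one or the other.

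The transcript values were far less even between replicates than the gene values. Among the 94, 11 transcripts that reached 5 FPKM varied at least 5-fold within a group. CARS-016 was at 0.0292, 16.3 and 15.2 FPKM in target libraries, where target replicate 1 had CARS-002 at 18.6 FPKM in its place. IARS-202 was at 0 FPKM in all target libraries, against 0, 0 and 13.9 FPKM in control libraries. QARS-005 was at 0, 17.3 and 0 FPKM in target libraries and at 0, 12.8 and 0 FPKM in control libraries. Such swings between transcripts of a gene occurred in libraries whose gene FPKM differed little.

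The share of a gene's transcript FPKM held by its main transcript could be compared in the 24 members with several listed transcripts. It did not overlap between the groups in 4 of them, where this held for 11.4% of 7548 genes, and the exact permutation p was 0.10 for each, the smallest that 3 against 3 allows. LARS-002, at 33.4, 29.2 and 29.6 FPKM in target libraries and at 0, 27.1 and 0 FPKM in control libraries, held a share 56.6 percentage points larger in target libraries. The control libraries thus fell into both states, and the difference rests on control replicates 1 and 3. CARS-016 held 0.0712%, 40.5% and 36.6% in target libraries and 42.3%, 45.5% and 45.4% in control libraries, a difference of -18.7 percentage points that was -5.86 without target replicate 1. DARS-001 held 100% in each target library and 95.9%, 94.6% and 94.6% in control libraries. The shorter DARS-009 was listed at 0 in all target libraries, against 1.09, 1.46 and 1.44 FPKM in control libraries. DARS-009 had a log2 change of -1.22 and lay at the threshold without passing (limma, adjusted p = 0.050). TARS-001 held 95.4%, 93.9% and 93.7% in target libraries and 86.5%, 91.7% and 90.5% in control libraries.

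When the listed transcripts were summed in place of the authors' gene value, AARS was the sole member that passed (0.47; limma, adjusted p = 0.019). CARS, IARS and EPRS kept changes of 0.57, 0.37 and 0.30 without passing (adjusted p = 0.17, 0.085 and 0.12). The MARS change was 0.37 (adjusted p = 0.48) and that of GARS 0.18 (adjusted p = 0.79). The GARS sum is a single listed transcript, GARS-001, which was at 104, 99.3 and 57.9 FPKM in target libraries and at 73.7, 82.0 and 67.8 FPKM in control libraries, with target replicate 3 below all control libraries. TARS turned its direction, with a sum of 59.2 FPKM in target and 80.6 FPKM in control libraries (-0.38, adjusted p = 0.64). The TARS sum was 0.704-fold the gene value and that of QARS 0.754-fold. For CARS, WARS, HARS and CARS2 the sum was 2.49-fold, 2.59-fold, 2.62-fold and 3.92-fold the gene value. The gene value is therefore not the sum of the listed transcripts.

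**Figure D5:**
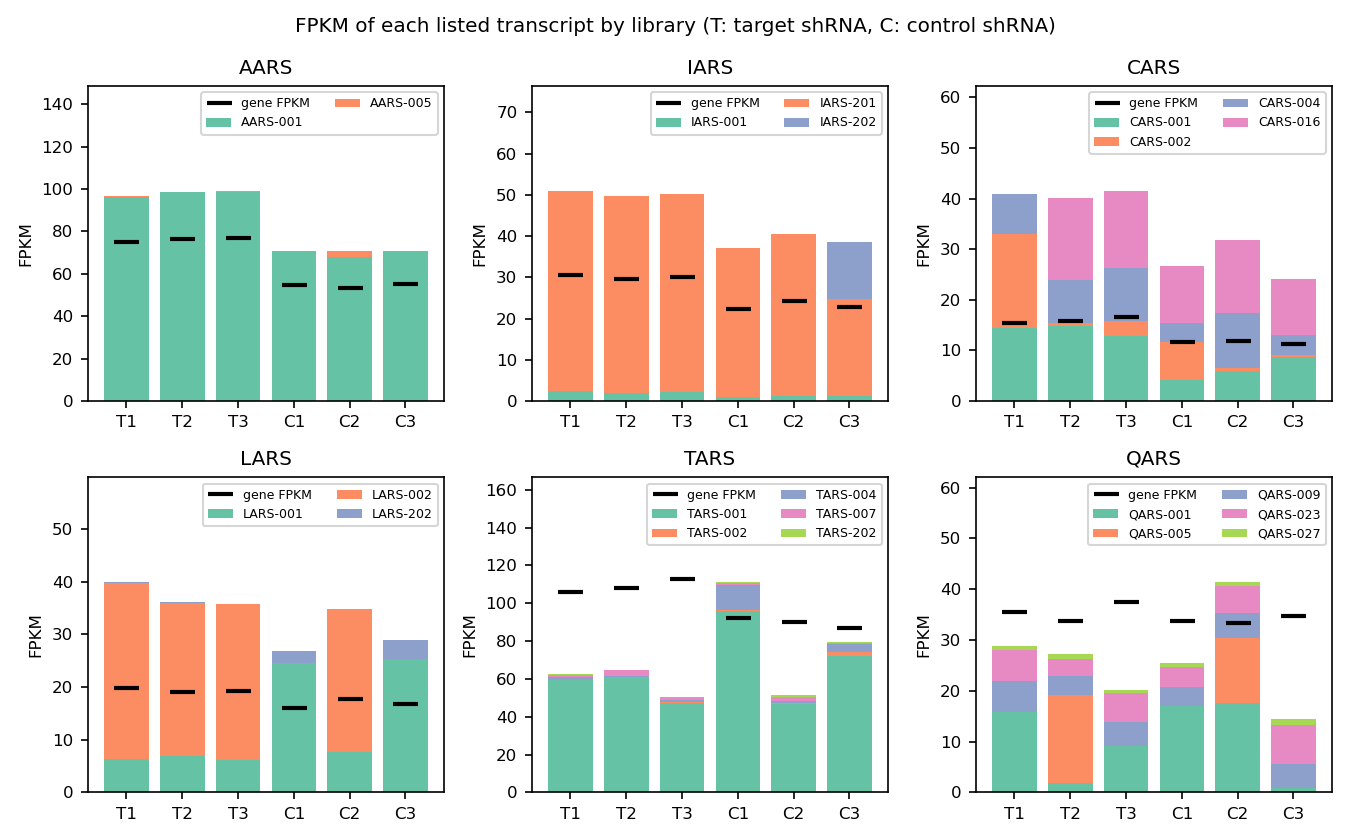
FPKM of each listed transcript (stacked bars) of 6 synthetase genes in the 3 target (T1 to T3) and 3 control (C1 to C3) libraries, with the authors' gene FPKM as a black dash. AARS is nearly all AARS-001 in every library, LARS-002 is at 0 in C1 and C3, and the bars of TARS and QARS lie below the gene value in all target libraries.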

How the data were processed

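RNA-seq of 6 MKN45 libraries, 3 per shRNA, was grouped and numbered by sample title. Per the labels' protocols, RNA was extracted with Trizol and libraries followed Illumina protocols. The deposited values are FPKM, made by the authors for genes and for transcripts. The submitters' processing notes name hg19 and GRCh37. Aligner, quantification tool, annotation release and strand setting: not given in the sources used here. Ratios of low genes did not pile up at common values (at most 7 of 1036 genes shared a ratio to 4 digits between a pair of libraries), so whole reads were not recovered and depth is unknown.

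Values were analysed as log2(FPKM + 1) with limma 3.58.1 (trend) in R 4.3.3, for features of at least 1 FPKM in at least 3 libraries. The scale understates changes of low genes. All 36 members passed this filter. P-values were adjusted by Benjamini-Hochberg over each whole table. Errors are SDs or moderated SEs. The fit was tested on simulated data. Members, gene lists and tests were chosen with earlier results of these data known. Values by library were given for members past the threshold, for up to 6 per compartment of largest change without overlap, and for GARS, KARS, QARS, EPRS and WARS, and values of other members were added after they were seen. Transcripts were named if past the threshold or if the main share did not overlap, and others named for their spread were chosen after their values were seen, as were the 6 genes of the transcript plot. Promoters come from RefSeq (GRCh38.p14), matched by gene identifier and current symbol, while gene positions are those of the tables (GRCh37). Alternatives were another pseudocount, other filters, scalings, no trend, a replicate block, each library left out and, added after seeing the data, sums of listed transcripts. Python 3.11.15, pandas 2.3.3 and matplotlib 3.10.9 were used.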

Additional observations from a re-analysis of the deposited data

How the results depend on the processing

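The 6 calls among cytosolic genes numbered 5 to 6 under a pseudocount of 0.1, without a filter, with a mean minimum of 5 FPKM, and under quantile normalization, median rescaling and no trend. They were 1 to 2 with a library left out, 1 from sums of listed transcripts (an alternative chosen after seeing the data) and 0 with a replicate block. The mitochondrial count was 0 in all of these settings, though only 8 of the 16 genes were tested at a mean minimum of 5 FPKM. Over all genes 80 passed, with 52 at a mean minimum of 5 FPKM, 10 with the replicate block, 27 from transcript sums and 23 to 42 with a library left out. Synthetase transcripts numbered 1, with 0 under quantile normalization, 2 under median rescaling, 0 with the replicate block and 0 to 2 with a library left out. Without the trend the 1 was a lower call. Same-numbered libraries did not deviate together (correlations -0.01, 0.02 and 0.07), so the numbers were not taken as pairs, and not every library correlated best with its own number.

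Under transcript sums TARS (-0.38), CARS2 (-0.07), FARSA (-0.02), NARS2 (-0.03), RARS2 (0.02) and ATF4 (-0.04) turned, and under median rescaling KARS (-0.01). With a library left out the range crossed 0 for HARS (-0.05 to 0.12), MARS2 (-0.02 to 0.15), NARS2 (-0.03 to 0.12), RARS2 (-0.06 to 0.04), SARS2 (-0.03 to 0.30), VARS (-0.05 to 0.03), VARS2 (-0.01 to 0.21), WARS2 (-0.09 to 0.02), AIMP1 (-0.05 to 0.11) and the pair differences of asparagine (-0.01 to 0.28) and serine (-0.02 to 0.30). For these the cause was not tested. No scaling moved the median of all genes by over 0.1, from 0.03 to 0.00 at most. Depth is unknown, so what it limits cannot be given.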
